A study of Mus musculus with 9 samples.

Results

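Car3, Hcar1, Ppp1r1a, Sprr1a and Arhgef37 are 5 of the 54532 genes in the deposited tables, matched by gene name. They were chosen by their read counts, which were highest in differentiated 3T3-L1 cells and at or near 0 when the cells were put through differentiation without added lysine. The levels that follow are therefore what chose the genes, and they are given as a description with no test. Choosing genes highest in differentiated cells also set the direction of their ratios over undifferentiated cells. 3T3-L1 is a mouse preadipocyte line, labelled here as fibroblast, that turns into lipid-filled adipocytes in a hormonal medium. Poly A RNA was sequenced in 9 libraries, n = 3 per group. Cells of all 3 groups had been held at confluence for 3 days, before any induction. Undifferentiated cells received none of the hormonal inducers. Differentiated cells received 1 µM dexamethasone (a glucocorticoid), 0.5 mM IBMX (a phosphodiesterase inhibitor), 1 µM rosiglitazone (an activator of the receptor PPARG) and 10 µg/mL insulin in a medium that was made without lysine and arginine and had both added back. Lysfree cells received the same 4 agents in the same base medium with arginine added back and lysine left out, and by the study's own measurement that medium still held traces of lysine. Serum was at 10% throughout, calf serum for maintenance and fetal serum in the induction medium. All 3 groups came from the same cell line, so they say nothing about fat tissue or primary cells, and none of the 9 libraries came from cells given lysine back. The labels do not say whether the 3 libraries of a group were separate cultures, so the spread between them may be technical.

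The 5 genes sit in different parts of adipocyte biology. Car3 encodes carbonic anhydrase 3, a cytosolic enzyme with weak carbon dioxide hydration activity that is one of the most abundant proteins of mouse fat and of slow skeletal muscle. Hcar1 encodes the lactate receptor HCAR1 (GPR81), a receptor of the adipocyte surface that acts through the inhibitory G protein Gi to lower cyclic AMP and so to restrain lipolysis. Ppp1r1a encodes inhibitor 1, which blocks protein phosphatase 1 once protein kinase A has phosphorylated it, so that phosphates placed by the kinase last longer. Sprr1a encodes a small proline rich protein that transglutaminases crosslink into the cornified envelope of keratinocytes, joining glutamine to lysine side chains, and it is also known as a gene of stressed or regenerating cells. Arhgef37 encodes a protein of the family of guanine nucleotide exchange factors, which load small GTPases with GTP, and its role in adipocytes is little described.

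Total counts per library ran from 15880144 to 21806693, and 1 count in a library of this size is the smallest step a level can take. Levels are given as CPM (counts scaled by library size after TMM normalization over the 9 libraries) or as the deposited FPKM, which also divides by gene length. The abundance of different genes is compared in FPKM, whereas the CPM of different genes side by side shows only how many reads each drew. Markers of preadipocytes and of adipocytes were both present. Summed over 25 mature adipocyte genes, the level was 2891 to 3271 CPM in Undifferentiated, 37599 to 39014 CPM in Differentiated and 2816 to 3834 CPM in Lysfree libraries. The sum is weighted to the most abundant of them, such as Lpl. Gene by gene, 11 of the 25 were called lower and 1 higher in Lysfree than in Undifferentiated cells by edgeR, with a median log2 fold change of -1.43, or -0.90 with genes at 0 in a group set to the bound that 3 counts give. Summed over 9 fibroblast and preadipocyte genes it was 46294 to 49512, 10319 to 10461 and 15954 to 16616 CPM in the same order. Genes of macrophages (7, with Adgre1 and Itgam at 0 throughout) summed to between 13.2 and 32.2 CPM in any library and those of endothelium (5) to 0.569 to 1.26 CPM in Undifferentiated, 0.449 to 1.36 CPM in Differentiated and 6.30 to 7.62 CPM in Lysfree libraries, where 2 of the 5 were called higher than in either other group. Their part in the results was not tested. These are bulk samples, in which fewer adipocytes and less RNA per adipocyte cannot be told apart. Lysfree 1 stood apart from its group. Of 9071 genes with a mean of at least 10 CPM, 207 were more than 2-fold away from the mean of the other Lysfree libraries there, against 11 in Lysfree 2 and 11 in Lysfree 3. The 5 genes had 0, 0, 0, 1 and 0 counts in Lysfree 1, and were as low in the other 2 Lysfree libraries.

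Car3 was the most abundant of the 5 genes. The Differentiated libraries held 1288, 1441 and 1413 counts, the Undifferentiated libraries 225, 323 and 179, and the Lysfree libraries 0, 0 and 0. Per length, the level was 28.9 ± 1.77 FPKM in Differentiated and 4.24 ± 0.785 FPKM in Undifferentiated cells (SD, n = 3). The 3 groups did not overlap, and the order was Differentiated, Undifferentiated, Lysfree. On the CPM scale Differentiated was 6.68-fold above Undifferentiated, with a 95% counting interval of 6.09 to 7.14, and at least 1489-fold above Lysfree when 3 counts over the group are taken as the floor. Undifferentiated cells were themselves at least 223-fold above Lysfree cells. Car3 (ENSMUSG00000027559) lies on the plus strand of chromosome 3 at 14863512 to 14872523 in mm10 and has 7 exons. Slow skeletal muscle is the other tissue that carries much of this enzyme, and 10 skeletal muscle genes together stood at 9.46 to 11.9 CPM in Undifferentiated, 11.8 to 15.7 CPM in Differentiated and 3.30 to 5.04 CPM in Lysfree libraries, with Myod1, Myh2 and Myh4 at 0 throughout. In each group only 1 of the 10 had a mean of at least 1 CPM, so the sum does not describe muscle genes as a set.

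Hcar1, the lactate receptor, was low in Undifferentiated cells and had no count in Lysfree cells. The Undifferentiated libraries held 11, 8 and 4 counts, the Differentiated libraries 338, 446 and 334, and the Lysfree libraries 0, 0 and 0. Per length these were 0.115 ± 0.0407, 6.74 ± 0.504 and 0 FPKM. Every Undifferentiated library lay above every Lysfree library, although by few counts. Differentiated was 57.7-fold above Undifferentiated (95% counting interval 37.3 to 89.1, CPM) and at least 399-fold above Lysfree. The bound for Undifferentiated over Lysfree was at least 6.91-fold. Hcar1 (ENSMUSG00000049241) is a gene of 1 exon on the minus strand of chromosome 5, at 123876736 to 123880020. Its promoter is shown so that it can be set beside that of Sprr1a. The line holds the 250 bases before the start annotated in RefSeq, read 5′ to 3′ on the strand of the gene (GRCm38.p6, chr5:123880004-123880253, minus strand). That start lies inside the gene as placed above, so the window overlaps the end of the gene. All letters are in lower case because none of the motifs searched was found.
Hcar1 promoter: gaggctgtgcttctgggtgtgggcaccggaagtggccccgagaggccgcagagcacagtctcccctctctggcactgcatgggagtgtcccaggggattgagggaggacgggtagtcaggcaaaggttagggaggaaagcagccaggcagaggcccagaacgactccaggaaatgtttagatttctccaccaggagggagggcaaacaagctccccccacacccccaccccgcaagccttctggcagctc

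Ppp1r1a, the inhibitor of protein phosphatase 1, had 15, 22 and 8 counts in the Undifferentiated, 176, 205 and 204 in the Differentiated and 0, 0 and 0 in the Lysfree libraries. Its level was 0.563 ± 0.194 FPKM in Undifferentiated and 8.94 ± 0.651 FPKM in Differentiated cells. As for Car3 and Hcar1, the groups did not overlap and Lysfree was the lowest. Differentiated was 15.6-fold above Undifferentiated (95% counting interval 11.1 to 20.9, CPM) and at least 210-fold above Lysfree, and Undifferentiated was at least 13.5-fold above Lysfree. Ppp1r1a (ENSMUSG00000022490) lies on the minus strand of chromosome 15 at 103530279 to 103538003 and has 7 exons.

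Sprr1a, the envelope protein gene, was near 0 in Undifferentiated and Lysfree cells and came next to Car3 per length in Differentiated cells. The Undifferentiated libraries held 0, 0 and 1 counts, the Differentiated libraries 284, 379 and 324, and the Lysfree libraries 1, 0 and 1. Differentiated cells stood at 24.3 ± 1.34 FPKM, against 0.0258 ± 0.0447 FPKM in Undifferentiated and 0.0448 ± 0.0390 FPKM in Lysfree cells. The Undifferentiated and Lysfree libraries overlapped and no fold is given between them. Differentiated was 925-fold above Undifferentiated on the CPM scale, a ratio that rests on 1 count in the lower group and has a 95% counting interval of 204.5 to 45154. Against Lysfree, with 2 counts, the ratio was 522-fold (146 to 4385). Sprr1a (ENSMUSG00000050359) lies on the minus strand of chromosome 3 at 92483952 to 92485895 and has 2 exons. Keratinocytes are the usual source of its protein. A set of 8 keratinocyte and epithelial genes summed to 9.72 to 13.02 CPM in Undifferentiated, 7.83 to 10.1 CPM in Differentiated and 13.7 to 14.4 CPM in Lysfree libraries, with Krt1 and Epcam at 0 throughout and Krt5 at 0 in Differentiated and Lysfree libraries.

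The promoter of Sprr1a is shown beside that of Hcar1 because it held motifs that the other lacked. The window is chr3:92485882-92486131 on the minus strand (RefSeq, GRCm38.p6), and the capitals mark AP-1 motifs and a TATA box. Here too the RefSeq start lies inside the gene as placed above, and distances are counted from the RefSeq start.
Sprr1a promoter: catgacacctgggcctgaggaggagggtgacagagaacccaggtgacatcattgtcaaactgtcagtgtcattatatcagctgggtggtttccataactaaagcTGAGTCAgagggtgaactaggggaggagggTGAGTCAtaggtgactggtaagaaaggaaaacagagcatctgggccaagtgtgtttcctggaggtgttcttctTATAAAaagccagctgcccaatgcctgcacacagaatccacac
The AP-1 motif TGANTCA occurred 2 times, starting 146 and 116 bases before the start, and TATAAA occurred 43 bases before it. Of 32851 RefSeq promoter windows of the same length, 6.75% hold the first motif and 12.4% the second, searched on both strands. The E-box letters CANNTG, which 66.2% of windows hold, occurred 6 times. Neither promoter held AGGTCA (the letters that PPAR and RXR bind, in 14.02% of windows), a direct repeat of it with 1 base between (0.0335%), the C/EBP motif TTGCNNAA (9.56%), the C/EBP-ATF motif TGATGNAA (3.45%), the CREB motif TGACGTCA (1.55%) or the palindromic glucocorticoid receptor motif (0.387%), and the Hcar1 window held neither AP-1, a TATA box nor an E-box. The AP-1 motif was added to the search after the Sprr1a sequence had been seen. A match is a run of letters and not a bound site, and the lack of one says only that these letters are not in this window. Promoters of Car3 and Ppp1r1a are not shown.

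Arhgef37 had 0, 0 and 0 counts in the Undifferentiated, 137, 166 and 183 in the Differentiated and 0, 2 and 1 in the Lysfree libraries. Its level in Differentiated cells was 3.00 ± 0.437 FPKM, and the 3 Lysfree libraries stood at 0, 0.0324 and 0.0159 FPKM. Lysfree and Undifferentiated libraries overlapped. Differentiated was at least 188-fold above Undifferentiated (CPM) and 180-fold above Lysfree, the second resting on 3 counts with a 95% counting interval of 59.2 to 847. Without Lysfree 1 that ratio fell from 7.49 to 6.90 on the log2 scale, and without Lysfree 2 it was 8.51. Arhgef37 (ENSMUSG00000045094) lies on the minus strand of chromosome 18 at 61493794 to 61536536, with 13 exons in GENCODE vM21, where the ends of the gene differ from those in the files, and 2.08% of the 50-base words of its transcripts also occur in transcripts of other genes. The other 4 genes share no such word, and no annotated gene overlaps any of the 5.

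**Figure D1:**
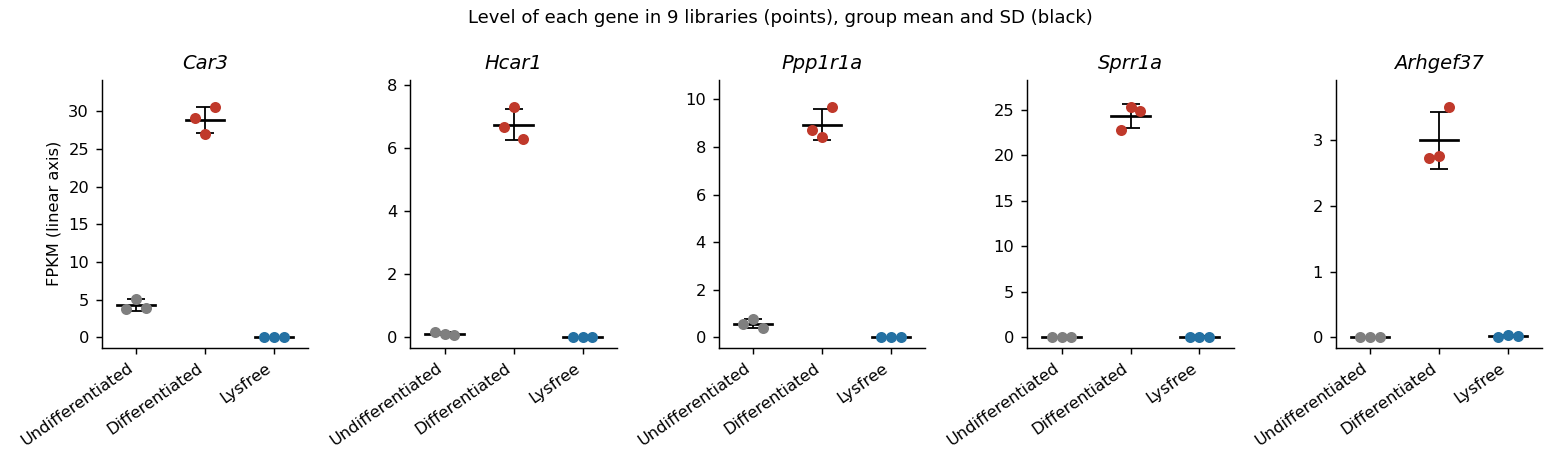
Level of the 5 genes in each of the 9 libraries, in deposited FPKM on a linear axis of its own for each gene. Points are libraries, and the black bar and whiskers are the mean and SD of the 3 libraries of a group, with every Differentiated library above every other and Car3, Hcar1 and Ppp1r1a at 0 in all Lysfree libraries.

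Per length, the order in Differentiated cells was Car3, Sprr1a, Ppp1r1a, Hcar1 and Arhgef37, and no library of one gene overlapped a library of its neighbour in that order. In proportion to their level the closest neighbours were Car3, at 27.0 to 30.5 FPKM, and Sprr1a, at 22.8 to 25.2 FPKM. By difference in FPKM they were Ppp1r1a, at 8.43 to 9.67, and Hcar1, at 6.29 to 7.29. Among genes with a value above 0 in Differentiated cells, Car3 stood above 90.9%, Sprr1a above 89.1%, Ppp1r1a above 75.6%, Hcar1 above 71.2% and Arhgef37 above 59.3%. In Undifferentiated cells the order differed, with Car3 at 4.24, Ppp1r1a at 0.563, Hcar1 at 0.115, Sprr1a at 0.0258 and Arhgef37 at 0 FPKM. The spread between Differentiated libraries was small. The coefficient of variation of CPM was 6.40% for Car3, 7.23% for Hcar1, 7.60% for Ppp1r1a and 5.58% for Sprr1a, where counting alone would give 2.69%, 5.18%, 7.16% and 5.51%. Arhgef37 varied most of the 5 in Differentiated cells, at 14.9% against 7.86% from counting. Between Undifferentiated libraries Car3 varied more, at 18.9% against 6.42% from counting. Its log2 ratio of Differentiated over Undifferentiated was 2.74, and 2.90 without Undifferentiated 2, so the counting interval of that ratio understates the spread between libraries.

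The genes fell into 2 kinds by their level in Undifferentiated cells. Car3, Ppp1r1a and Hcar1 were already counted in Undifferentiated cells, at 14.98%, 6.42% and 1.73% of their Differentiated level. Their Lysfree libraries lay below the Undifferentiated ones, which follows from choosing genes at or near 0 in Lysfree cells. The same order was common among mature adipocyte genes. Of the 24 with at least 1 CPM in Differentiated cells, 20 had a lower mean in Lysfree than in Undifferentiated cells. The gap was wide for Retn, at 0.0177 against 11.1 CPM, and Adipoq, at 5.95 against 80.9 CPM, and small for Fasn, at 248 against 257 CPM. By edgeR, 11 of the 25 listed were called lower, 1 higher and 13 not called, where 8.76% of all genes tested were called lower. Sprr1a and Arhgef37 were at the count floor in both, with 0.108% and 0% of the Differentiated level in Undifferentiated cells, and for this pair a difference between Undifferentiated and Lysfree cells was not detectable at this depth.

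How little of each gene was left in Lysfree cells is given here as a share of its Differentiated CPM, beside the same share for genes of mature adipocytes. For the 5 genes a low share is what the choice fixed. With 0 counts, Car3 can have kept at most 0.0672%, Hcar1 at most 0.251% and Ppp1r1a at most 0.476%, taking 3 counts as the limit. Sprr1a kept 0.192% and Arhgef37 0.557%. Among 25 mature adipocyte genes, 24 reached 1 CPM in Differentiated cells and the median share kept was 2.24%, or 2.80% with the genes at 0 set to their limit. Resistin (Retn), an adipocyte hormone, kept 0.0214%, and Slc2a4, the insulin-responsive glucose transporter, kept 0.0468%. Each share rests on 1 Lysfree count, so neither can be ranked against the upper limits of Car3, Hcar1 and Ppp1r1a, which had 0 counts. Adiponectin (Adipoq) kept 0.465%, Cidec of the lipid droplet 0.510%, and the fatty acid binding protein Fabp4 1.56%. At the other end Lpl, the lipoprotein lipase, kept 46.0%, Fasn, the fatty acid synthase, 19.9%, and Pparg, the nuclear receptor that drives adipogenesis, 17.0%. Adrb3 and Lep, the beta 3 adrenergic receptor and leptin, were also at 0 in Lysfree cells, but from Differentiated levels so low that up to 2.11% and 4.82% could have remained. Over all 12556 genes with at least 1 CPM in Differentiated cells the median share kept was 99.5%, and 73 genes (0.581%) kept under 1%.

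**Figure D2:**
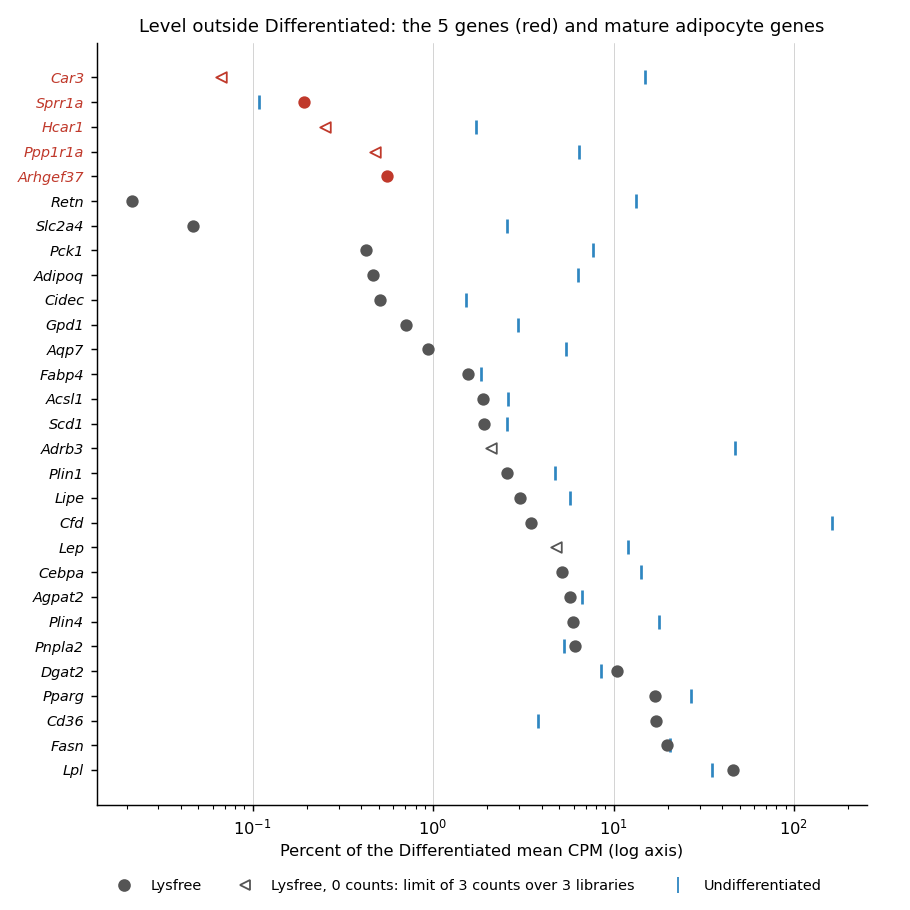
Share of the Differentiated mean CPM found in Lysfree cells (circles) and Undifferentiated cells (ticks), in percent on a log axis, for the 5 genes (red) and 24 mature adipocyte genes. Open triangles mark genes with 0 Lysfree counts, drawn at the upper limit that 3 counts over the group allow, and the Lysfree values of the 5 genes lie between 0.0672% and 0.557%.

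The rule that chose the genes was also written as a set of thresholds and applied to all genes. Of the 12556 genes with a mean of at least 1 CPM in Differentiated cells, 3263 had every Differentiated library above all 6 others, and 117 of these had at most 3 counts in each Lysfree library. All 5 genes are among the 117, which they must be, and 93 of the 117 are protein coding. In 35 of the 117 all Lysfree libraries were at 0. The Differentiated mean of the 117 had a median of 2.14 CPM, in reads drawn and not in abundance, against 22.02 CPM for Hcar1, 19.5 for Sprr1a, 11.6 for Ppp1r1a and 9.64 for Arhgef37. Retn, at 82.7 CPM, drew the most reads of the 117 and Car3, at 82.2 CPM, came next. After these came Vsir, an immune checkpoint receptor, at 55.2 CPM, Slc2a4 at 37.8 and Hcar2 at 29.2. Of the 12556 genes with at least 1 CPM in Differentiated cells, 36 were at 0 in every Lysfree library. At a cut of 9 CPM, set just below Arhgef37, 4 of 9372 were, namely Car3, Hcar1, Ppp1r1a and the antisense transcript 4631405J19Rik. The first 3 were chosen for such counts, and the number depends on the cut. Ffar4, at 8.05 CPM and also at 0, lay just below it. Just inside the limit on Lysfree counts lay Mc5r, a melanocortin receptor, whose highest Lysfree library held 3 counts. Just outside lay Pck1, the enzyme of glyceroneogenesis, and Apol6, with 4 counts in their highest Lysfree library, and Sema3g, a secreted semaphorin, with 133 CPM in Differentiated cells and at most 5 Lysfree counts. In Undifferentiated cells, 39 of the 117 had at most 3 counts in every library and 78 had more in at least 1.

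**Figure D3:**
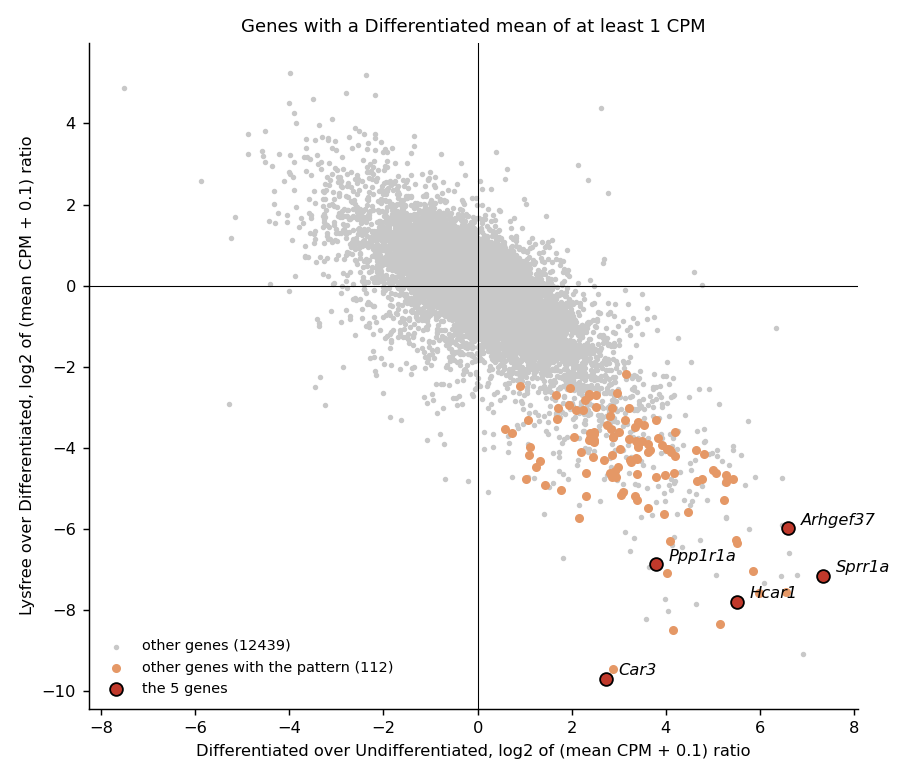
Log2 ratio of Differentiated over Undifferentiated mean CPM (horizontal) against that of Lysfree over Differentiated mean CPM (vertical), each with 0.1 CPM added, for the 12556 genes with at least 1 CPM in Differentiated cells. The axes share the Differentiated libraries, which by construction ties high values on the horizontal to low values on the vertical axis. The 5 genes (red) lie to the right of 0 and far down the vertical axis, and the rest of the 117 genes that met the thresholds are orange.

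The genes whose levels ran closest to each of the 5 over the 9 libraries were found by the root mean square difference of log2(CPM + 1). For Car3 the closest was Retn at 0.11, with 11.1, 82.7 and 0.0177 CPM in Undifferentiated, Differentiated and Lysfree cells, with A530016L24Rik also among the nearest at 0.67. For Hcar1 it was P2rx1, an ATP-gated ion channel, at 0.12, then 4631405J19Rik at 0.19 and Adgrf5, an adhesion receptor, at 0.26. Sprr1a shared those 3 neighbours, with 4631405J19Rik at 0.17, P2rx1 at 0.27 and Adgrf5 at 0.30. Arhgef37 ran closest to Mc5r at 0.18, Ffar4, a receptor for long chain fatty acids, at 0.21 and Dmkn, a secreted protein of the epidermis, at 0.24. Ppp1r1a had no neighbour as close, with Treml1 at 0.28, the hair keratin Krt36 at 0.31 and Fmo1, a monooxygenase, at 0.31. These distances follow level as well as pattern. When Pearson correlation was used in their place, none or 1 of the 3 genes stayed in the list of each of the 5.

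The relatives of the 5 genes, in 15 lists of families and pathways, were not picked by the rule. The lists were chosen with earlier results of these data known, so the shares that follow are not an independent check. Some relatives, such as Hcar2 and Car12, met the thresholds of the 5 genes themselves. The lists hold 184 genes without the 5, and a gene was called when its adjusted p in edgeR was under 0.05 and its level differed at least 2-fold. Between Differentiated and Undifferentiated cells, 42 of 148 tested relatives were higher (28.4%), against 10.4% of all genes tested, and 19 were lower (12.8%), against 11.4% of all genes. In Lysfree against Differentiated cells 14 of 148 were higher (9.46%), where the share of all genes was 8.14%, and 44 were lower (29.7%), where it was 10.5%. In Lysfree against Undifferentiated cells 12 of 144 were higher (8.33%, all genes 5.52%) and 24 lower (16.7%, all genes 8.76%). The median log2 fold change over all genes was 0.02, -0.06 and -0.02 in the same order of comparisons. The comparisons share libraries and are not independent, and the lists include lipolysis genes known from earlier results to move.

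Among the carbonic anhydrases, which interconvert carbon dioxide and bicarbonate, 7 of 12 tested were higher in Differentiated than in Undifferentiated cells and 1 lower, with a median log2 fold change of 1.82, or 1.13 when genes with no count in a group are set to the bound that 3 counts give. In Lysfree against Differentiated cells 6 of 12 were lower and 2 higher, with a median of -2.67, or -1.68 at that bound. The first count includes Car1, with 0, 2 and 0 counts in Undifferentiated and 0, 8 and 8 in Differentiated libraries, which was not called by DESeq2, by either limma fit, with all 9 libraries in 1 fit, under the replicate block (edgeR adjusted p = 0.152) or without Undifferentiated 1, Undifferentiated 3, Differentiated 2 or Differentiated 3. Car5b, the mitochondrial enzyme, was the most abundant, at 7.30 ± 0.674 FPKM in Undifferentiated, 57.8 ± 0.375 in Differentiated and 5.38 ± 1.03 in Lysfree cells, a log2 fold change of -3.36 ± 0.12 (SE) for the last pair (edgeR adjusted p = 1.99e-15). Cytosolic Car2, the chromosomal neighbour of Car3, stood at 0.0871, 1.45 and 0.0742 FPKM, and its Lysfree level was not called against its Undifferentiated one (log2 fold change -0.21 ± 0.86, edgeR adjusted p = 0.87). Membrane-bound Car12 met the same thresholds as the 5 genes, with 1, 0 and 0 counts in Undifferentiated, 63, 89 and 71 in Differentiated and 3, 1 and 0 in Lysfree libraries. The secreted enzyme Car6 went the other way. It stood at 0.761 ± 0.363 FPKM in Undifferentiated, 4.19 ± 0.381 in Differentiated and 24.7 ± 2.85 in Lysfree cells, a log2 fold change of 2.62 ± 0.14 for Lysfree against Differentiated (edgeR adjusted p = 1.53e-12). Car13, at 16.6, 34.7 and 20.5 FPKM, was called higher in Differentiated than in Undifferentiated cells (1.04) but not when Undifferentiated 3 was left out, and it was not called between Lysfree and Differentiated cells. Of 8 bicarbonate transporters 1 was higher and 2 were lower in Differentiated than in Undifferentiated cells, and 1 was lower in Lysfree than in Differentiated cells, in both cases with Slc4a7 as the gene that was higher and then lower (1.14, 6.01 and 2.33 FPKM).

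Around the lactate receptor, 9 of 12 listed enzymes and carriers that make and move its ligand reached 1 CPM in a group, and Ldhc and Slc16a7 had no count in any library. Ldha, which makes lactate from pyruvate, stood at 146 ± 8.30 FPKM in Undifferentiated, 997 ± 21.1 in Differentiated and 391 ± 13.9 in Lysfree cells, so that Lysfree cells lay below Differentiated but above Undifferentiated cells, by a log2 fold change of 1.47 ± 0.09 (edgeR adjusted p = 8.15e-15). Ldhb, which favours the reverse reaction, stood at 35.9, 137 and 9.87 FPKM, a log2 fold change of -3.73 ± 0.12 in Lysfree against Differentiated cells (edgeR adjusted p = 5.52e-16). The lactate carrier Slc16a1 was higher again in Lysfree cells, at 13.04, 34.2 and 69.97 FPKM, a log2 fold change of 1.10 ± 0.10 over Differentiated cells (edgeR adjusted p = 6.17e-09) that fell to 0.96, short of a 2-fold difference, without Lysfree 1. The carrier Slc16a3 stood at 1.35, 5.94 and 0.964 FPKM and was called lower in Lysfree than in Differentiated cells. Their shared chaperone Bsg, at 378, 661 and 364 FPKM, was not called in any comparison. In all, 6 of 10 tested genes of this list were higher in Differentiated than in Undifferentiated cells, and 4 were lower and 2 higher in Lysfree than in Differentiated cells, with medians of 1.40 and -1.07 (-0.83 at the bound).

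The paralog Hcar2, which encodes the receptor for niacin and ketone bodies, shared the pattern of Hcar1. Its counts were 5, 6 and 2 in Undifferentiated, 458, 558 and 461 in Differentiated and 1, 0 and 2 in Lysfree libraries, and it still had 3 counts in all without lysine. Per length its Differentiated level was 15.2 ± 0.383 FPKM, against 6.74 for Hcar1. Ffar2, a receptor for short chain fatty acids that also couples to Gi, followed at 0.582, 18.3 and 0.421 FPKM, with a log2 fold change of -5.37 ± 0.18 in Lysfree against Differentiated cells (edgeR adjusted p = 1.35e-15). Ffar4 had 130, 159 and 119 Differentiated counts and none in Lysfree libraries. Other receptors of the list differed, as the neuropeptide Y receptor Npy1r was lowest in Differentiated cells, at 0.814, 0.0343 and 1.70 FPKM. The Gi subunit Gnai2 itself stood at 128, 67.3 and 96.8 FPKM and was not called. Of the 12 tested genes of the list 4 were higher and 1 was lower in Differentiated than in Undifferentiated cells, and 4 were lower and 1 was higher in Lysfree than in Differentiated cells. The medians were -0.36 and -2.05, the second at -0.07 when the 3 genes without a count in a group are set to the bound, so the list as a whole had no clear direction.

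Downstream of these receptors, cyclic AMP activates protein kinase A, which in turn activates lipolysis and inhibitor 1. Of 11 tested stimulatory receptors, Gs and adenylyl cyclases, 4 were higher and 1 lower in Differentiated than in Undifferentiated cells, and 5 were lower in Lysfree than in Differentiated cells. The 5 include the receptor Adrb1, which lost its call under DESeq2, both limma fits, the replicate block and scaling by library size alone. It also lost it without Differentiated 2, Differentiated 3 or Lysfree 3. Gs itself, Gnas, was not called, and its counts show how Lysfree 1 differed, at 335 there against 1982 and 2056. The protein kinase A subunits were abundant throughout. The regulatory subunit Prkar2b stood at 50.7, 119 and 46.8 FPKM (log2 fold change -1.29 ± 0.09 in Lysfree against Differentiated, edgeR adjusted p = 3.29e-10) and the catalytic subunit Prkaca at 52.5, 92.8 and 32.8 FPKM (-1.44 ± 0.10, edgeR adjusted p = 6.91e-11). In the lipolysis list 9 of 10 genes were higher in Differentiated than in Undifferentiated cells and all 10 were lower in Lysfree than in Differentiated cells, although Plin5, a lipid droplet protein with 4, 3 and 2 counts in Differentiated libraries, lost its call under DESeq2, both limma fits and the replicate block (edgeR adjusted p = 0.141) and without any 1 of the 6 libraries. The medians were 4.17 and -4.86 (-4.53 at the bound). Hormone sensitive lipase, Lipe, stood at 8.42, 149 and 4.35 FPKM and the triglyceride lipase Pnpla2 at 24.7, 474 and 27.9 FPKM. Both were lower in Lysfree than in Differentiated cells, by log2 fold changes of -5.03 ± 0.13 (edgeR adjusted p = 2.68e-17) and -4.02 ± 0.09 (edgeR adjusted p = 2.47e-18).

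Protein phosphatase 1, the target of inhibitor 1, was abundant in all groups. Its catalytic subunits Ppp1ca (205, 319 and 218 FPKM), Ppp1cb (14.1, 19.8 and 25) and Ppp1cc (71.6, 52.2 and 73.8) were not called in any of the 3 comparisons. Of 10 other tested inhibitors none was higher and 2 were lower in Differentiated than in Undifferentiated cells, among them Ppp1r2 at 59.2, 28.7 and 36.0 FPKM. The brain relative of Ppp1r1a, Ppp1r1b (DARPP-32), had at most 6 counts in any library. The subunits that tether the phosphatase to glycogen did change, with 4 of 5 tested lower in Lysfree than in Differentiated cells and 3 of 6 lower than in Undifferentiated cells. Ppp1r3d stood at 12.1, 15.5 and 1.70 FPKM (log2 fold change -3.13 ± 0.13 in Lysfree against Differentiated, edgeR adjusted p = 4.85e-14), Ppp1r3c at 38.6, 53.3 and 11.7 FPKM and Ppp1r3b at 11.1, 21.4 and 5.12 FPKM.

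The relatives of Sprr1a were near the floor. The other 14 small proline rich genes were all under 1 CPM in every group, 4 of them were tested and none was called, and the nearest relative Sprr1b had 0, 0 and 0 counts in Undifferentiated, 0, 5 and 0 in Differentiated and 0, 1 and 0 in Lysfree libraries. Of 17 other genes of the cornified envelope 3 reached 1 CPM in any group. Of 5 tested, 2 were higher and 2 lower in Differentiated than in Undifferentiated cells, and of 6 tested 1 was higher and 1 lower in Lysfree than in Differentiated cells. The 2 higher genes include Ivl, with 0, 0 and 0 counts in Undifferentiated and 0, 9 and 2 in Differentiated libraries. It lost its call under DESeq2, both limma fits and the replicate block and without Differentiated 2. Envoplakin, Evpl, was called in the same directions as the levels of Sprr1a, with 9, 11 and 4 counts in Undifferentiated, 25, 16 and 22 in Differentiated and 5, 4 and 9 in Lysfree libraries. Neither limma fit called Evpl in those comparisons. Corneodesmosin, Cdsn, which holds corneocytes together, ran opposite to Sprr1a, at 81.7 ± 7.44 FPKM in Undifferentiated, 15.6 ± 1.43 in Differentiated and 202 ± 6.21 in Lysfree cells (log2 fold change 3.76 ± 0.10 in Lysfree against Differentiated, edgeR adjusted p = 3.2e-17). Among the transglutaminases that crosslink the envelope, Tgm2, the widely expressed enzyme, was called higher in Differentiated than in Undifferentiated cells (0.0684, 0.616 and 0.105 FPKM, log2 fold change 3.09 ± 0.37, edgeR adjusted p = 2.11e-16), whereas Tgm1 of keratinocytes had at most 13 counts in any library.

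None of the relatives of Arhgef37 met the thresholds that it did. Of 23 tested relatives 1 was higher and 6 were lower in Differentiated than in Undifferentiated cells, and 2 were higher and 1 was lower in Lysfree than in Differentiated cells, with medians of -0.34 and 0.04. The gene that was higher and then lower was Arhgef39, at 0.920, 2.17 and 0.344 FPKM (log2 fold change -2.59 ± 0.26 in Lysfree against Differentiated, edgeR adjusted p = 4.24e-08). Arhgef19 stood at 4.69, 0.744 and 1.90 FPKM, and Arhgef25 at 57.0, 15.9 and 30.2 FPKM, both called lower in Differentiated than in Undifferentiated cells. Dnmbp, the exchange factor Tuba, was not called at 5.36, 4.82 and 4.75 FPKM, and Arhgef38 had 1 count in all.

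**Figure D4:**
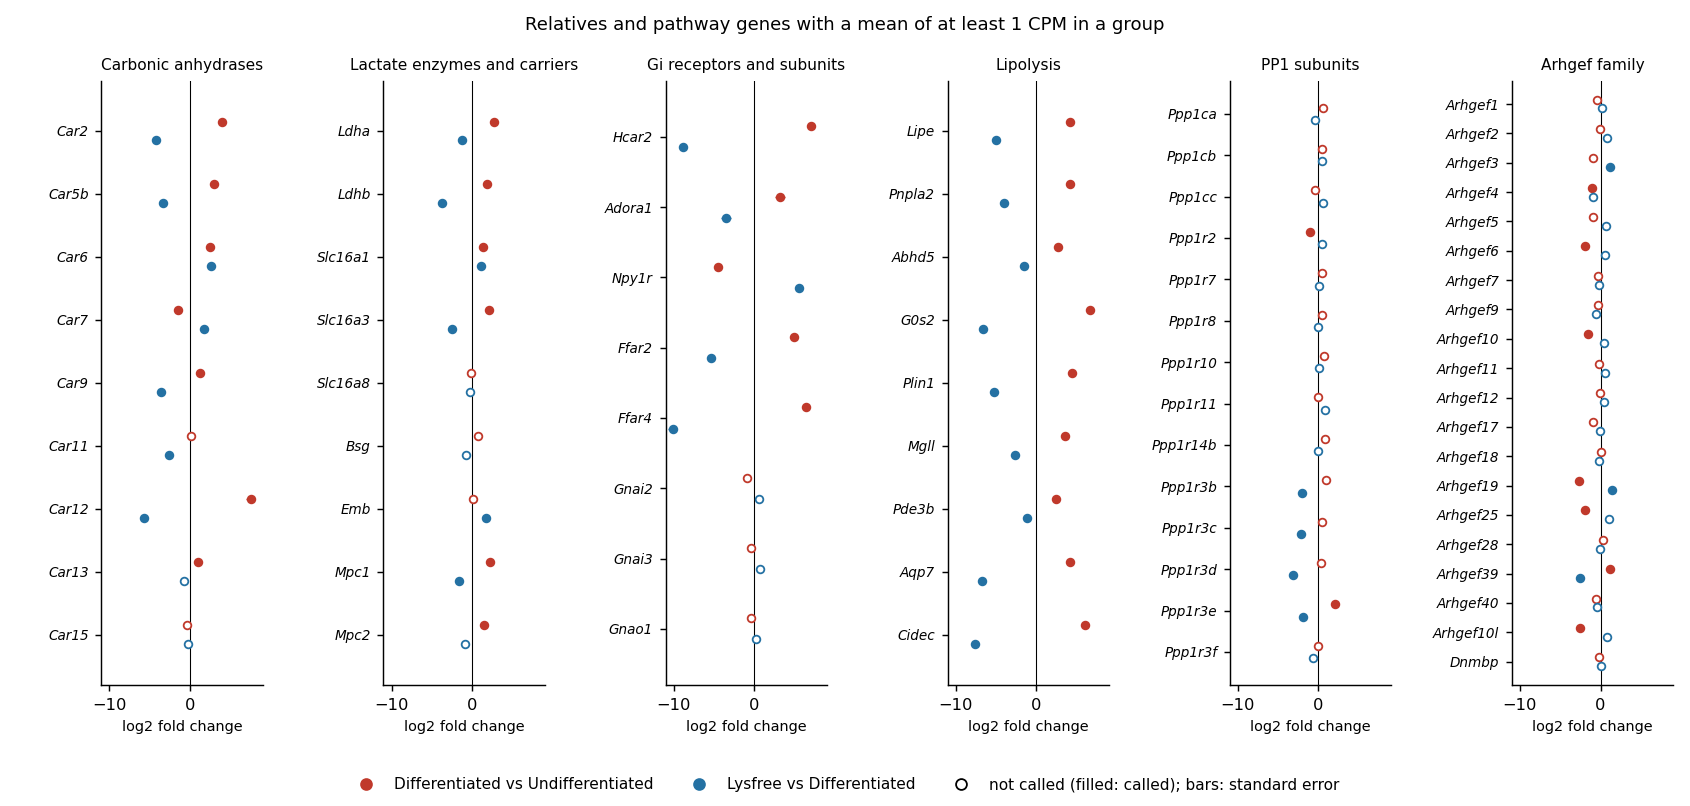
Log2 fold changes of Differentiated against Undifferentiated cells (red) and of Lysfree against Differentiated cells (blue) from edgeR, with standard errors as bars, for relatives and pathway genes with a mean of at least 1 CPM in a group. Filled points were called, and the 9 lipolysis genes shown lie on opposite sides of 0 in the comparisons whereas the 3 catalytic subunits of protein phosphatase 1 were not called.

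Of the genes that lie near the 5 on their chromosomes, Hcar2 alone met the same thresholds. Within 200 kb of the starts, Car3 had 6 other genes, of which 1 reached 1 CPM, Car2 at a distance of 22.8 kb. Hcar1 had 16, of which 9 reached 1 CPM, among them its paralog Hcar2, 14.5 kb away. Of the others, Kntc1, a kinetochore protein at 5.37, 19.99 and 8.85 CPM, and Ccdc62, at 1.33, 1.13 and 0.502 CPM, were called lower in Lysfree than in Differentiated cells, whereas Denr, a translation factor at 60.8, 153 and 86.6 CPM, was not. Ppp1r1a had 14 neighbours, 4 of them at 1 CPM or more, and the phosphodiesterase Pde1b, 34.97 kb away, stood at 4.18, 6.18 and 0.831 CPM. Sprr1a, inside the epidermal differentiation complex, had 26 neighbours, of which only Gm9774 reached 1 CPM (1.05, 1.69 and 1.54 CPM). Arhgef37 had 14, with 7 at 1 CPM or more. Its neighbour Csnk1a1, a kinase 18.7 kb away, stood at 321, 549 and 450 CPM, and Ppargc1b, a coactivator of mitochondrial genes 136 kb away, at 2.74, 52.9 and 4.22 CPM.

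**Figure D5:**
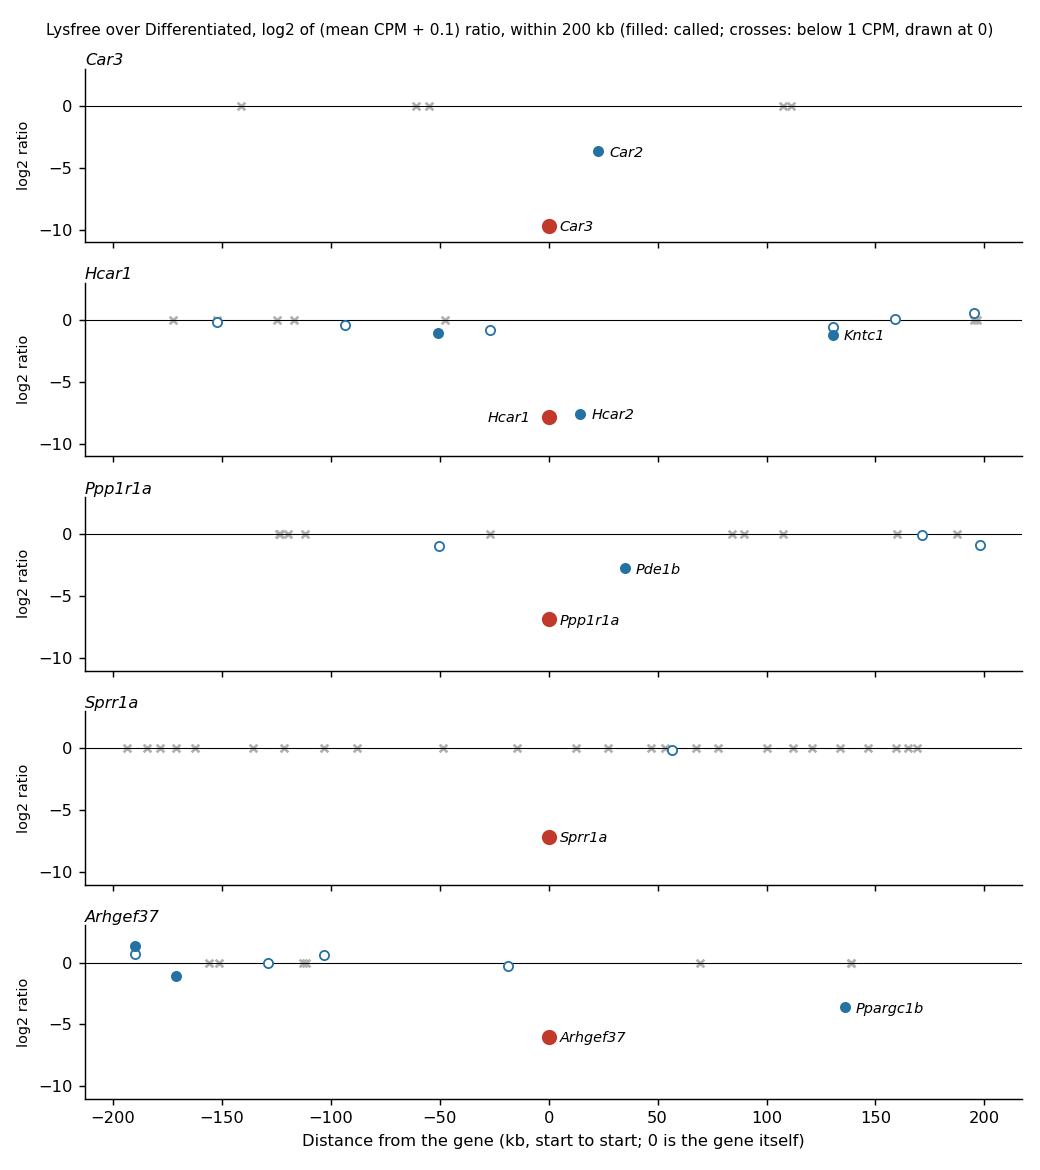
Log2 ratio of Lysfree over Differentiated mean CPM, with 0.1 CPM added to both, against the distance in kb between gene starts, for genes within 200 kb of each of the 5 genes (red). Filled points were called, crosses are genes below 1 CPM drawn at 0, and each of the 5 lies below its neighbours, with Hcar2 beside Hcar1.

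Since lysine was the nutrient withheld, the lysine codons of the 5 coding sequences were counted in GENCODE vM21. Over 21739 genes the median share was 5.35% of codons, with quartiles of 3.82% and 7.12%. Car3 had 19 lysine codons of 260 (7.31%), Hcar1 10 of 351 (2.85%), Ppp1r1a 8 of 171 (4.68%) and Arhgef37 30 of 676 (4.44%). Sprr1a had 16 of 144 (11.1%), a share that 3.81% of genes exceed, and Hcar1 lay below the lower quartile. The levels in these libraries are of RNA and say nothing of how much protein was made. The stretch printed here is codons 16 to 115 of Sprr1a, 300 bases of exon 2 at chr3:92484348-92484647 on the minus strand (GRCm38). It was picked as a run of 100 codons with the most lysine codons. As it spans 100 of the 144 codons, holding most of them does not show that they cluster. It holds 12 of the 16, 11 AAG and 1 AAA, in capitals.
Sprr1a codons 16 to 115: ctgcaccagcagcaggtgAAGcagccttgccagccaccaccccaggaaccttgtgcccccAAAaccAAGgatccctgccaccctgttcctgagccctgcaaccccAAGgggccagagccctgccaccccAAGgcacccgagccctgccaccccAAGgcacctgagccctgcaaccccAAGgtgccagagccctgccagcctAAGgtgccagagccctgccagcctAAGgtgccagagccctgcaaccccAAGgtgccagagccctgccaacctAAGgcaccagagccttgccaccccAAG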

How the data were processed

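Poly A RNA of 9 libraries, 3 per group, was analysed from tables of 54532 genes. The authors mapped paired-end reads to mm10 with HISAT2 2.0.5 and the deposited count of reads on each gene came from featureCounts 1.5.0-p3 without normalization (versions from the submitters' processing notes) and the authors deposited FPKM for the same genes beside it. The strand setting and annotation release are not given in the sources used here. Groups were taken from the sample labels. CPM used TMM scaling (edgeR 4.0.16) over all libraries.

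Relatives were tested with edgeR's quasi-likelihood test (R 4.3.3) on the 6 libraries of each comparison, over genes with a count above 0, with Benjamini-Hochberg adjustment over all genes tested. Genes were called at adjusted p below 0.05 where the log2 difference was 1 or more in either direction. A fold against a group at 0 was computed against 3 counts over its 3 libraries. With 1 to 3 counts it is a ratio with a 95% exact counting interval, which, like the floor, covers counting error only. The 5 genes and all lists were chosen with earlier results of these data known. Named genes were the 5, the 3 nearest to each, the 5 highest of the 117, and in each list the largest called changes at 1 CPM or more with the closest relatives, as receptors, enzymes and subunits. Alternatives were DESeq2 1.42.0, limma 3.58.1 on log2(FPKM + 1) and log2(FPKM + 0.1), other scalings and filters, all 9 libraries in 1 fit, a replicate block and leaving out each library. A near gene and a family list that met the rule for named genes are not reported here, although the totals over relatives include that list.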

Additional observations from a re-analysis of the deposited data

How the results depend on the processing

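Of the ratios between groups of the 5 genes, none changed direction under the alternatives run. The alternatives reuse the libraries that chose the genes, so the direction was set by that choice and this is no check of it. In Differentiated against Undifferentiated cells more genes were called lower than higher (2784 and 2545), but limma called more higher than lower, 1450 and 1276 on log2(FPKM + 1) and 2408 and 2337 on log2(FPKM + 0.1). Medians of the lists had no alternative fit. Of 98 alternative counts of genes, 88 stayed within 1.5 times the reported count and 10 did not. Limma on log2(FPKM + 1), which shrinks the change of low genes, called 2726 genes in place of 5329 in Differentiated against Undifferentiated, 1474 in place of 3426 in Lysfree against Undifferentiated and 2198 in place of 4507 in Lysfree against Differentiated cells, and among the relatives 38, 18 and 37 in place of 61, 36 and 58. The number of genes that meet the thresholds of the 5, reported as 117, was 57 with at most 1 Lysfree count, when Arhgef37 was lost and 4 of the 5 were kept, 257 with at most 10, 213 with a Differentiated mean of at least 0.5 CPM and 64 with at least 2 CPM. Leaving out each library in turn gave 117 to 143 such genes, 5037 to 5161, 3093 to 3448 and 4120 to 4485 genes called, and 57 to 61, 31 to 36 and 56 to 59 relatives called in the same order of comparisons.

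Of 109 alternative ratios of the 5 genes, 81 moved by less than the spread between replicates. Leaving out a Lysfree library lowered the log2 bound of Differentiated over Lysfree from 10.54 to 9.93 at the least for Car3, from 8.64 to 8.02 for Hcar1 and from 7.72 to 7.10 for Ppp1r1a, by construction, since 3 counts were then set against fewer reads. For Sprr1a that ratio ran from 8.44 to 9.52 around 9.03, and its ratio over Undifferentiated was 9.27 in place of 9.85 without Undifferentiated 1 or 2. The bound of Arhgef37 over Undifferentiated fell from 7.56 to between 6.89 and 7.10. Replicate numbers did not pair the libraries, as deviations of same-numbered libraries correlated at -0.0842 to 0.115. A replicate block called 4837, 3179 and 4173 genes and 57, 35 and 56 relatives. The depth limits what can be said at the floor, where 3 counts over the Lysfree libraries are 0.0552 CPM.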

Other observations

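Among the 117 genes that met the thresholds of the 5, a group of receptors was looked up after their values had been seen, so it is given as values with no test. Beside Hcar1 there were 9 other G protein coupled receptors (Hcar2, Mc5r, Ffar4, Mc2r, Sctr, Adrb3, Lpar5, Tshr and Adora1) and the ATP-gated channel P2rx1. The share of such receptors among all genes was not counted, so whether they are frequent among the 117 is not known. Receptors and channels of other kinds among the 117, such as Vsir and Trpv1, are left out. Hcar1, Ffar4, Mc2r, Sctr and Adrb3 were at 0 in all 3 Lysfree libraries. Mc2r, the receptor for adrenocorticotropic hormone, had 7, 7 and 2 counts in Undifferentiated and 69, 81 and 70 in Differentiated libraries. Sctr, the secretin receptor, had 4, 8 and 7 in Undifferentiated and 54, 63 and 58 in Differentiated libraries. Tshr, the thyrotropin receptor, had 7, 7 and 3, then 27, 26 and 21, and 0, 1 and 0 in Lysfree libraries. These receptors couple to different G proteins, and those named here include ones that raise cyclic AMP, such as Mc2r, Sctr, Tshr and Adrb3, and ones that lower it, such as Hcar1, Hcar2 and Adora1.

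Sprr1a was not the sole epithelial gene of the 117, again as noticed after the values had been seen. Of 50 keratin genes in the tables, 5 were among the 117, which were found among all 54532 genes. Krt19, a keratin of simple epithelia, had 2, 2 and 5 counts in Undifferentiated, 186, 212 and 204 in Differentiated and 2, 0 and 1 in Lysfree libraries. Krt23 had 0, 0 and 0, then 48, 63 and 54, then 1, 0 and 1. Krt9, Krt79 and Krt18 were the other 3, at 2.14, 1.52 and 1.35 CPM in Differentiated cells. Krt36 lay outside the thresholds with 207, 220 and 262 Differentiated counts and 6, 3 and 8 Lysfree counts. Krt13 was as high with as without lysine, at 134, 166 and 145 Differentiated and 151, 141 and 118 Lysfree counts. Krt80 ran the other way, with 25, 20 and 15 counts in Undifferentiated, 11, 21 and 8 in Differentiated and 130, 154 and 146 in Lysfree libraries. What part another cell type had in these levels was not tested. The 8 keratinocyte and epithelial markers summed to 7.83 to 14.4 CPM over the libraries and were highest in Lysfree libraries, with Krt1 and Epcam at 0 in every library.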
